A study of Populus tremula x Populus alba with 12 samples.

Results

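The transcript rows described here are those that were well expressed in control poplar leaves and whose level was strongly reduced in leaves of knockout plants. CPM values (a row's count divided by the library total and multiplied by 1000000) selected them in 3 steps, which were a mean of at least 5 CPM over the 6 control libraries, a knockout mean of at most 1/6 of that mean, and every knockout library below every control library. These steps left 208 rows, from 208 loci, among 16866 rows in all, or 2.08% of the 10008 rows that reached the control level. The rows were thus chosen by their measured CPM in the knockout and control libraries, and the size of the reduction is given below as a description, without a test. The intermediate libraries and the labels wild-type and empty-vector within the controls did not enter the selection, whereas the spread within controls and within knockout did, through the lowest control and the highest knockout library. "Members" below means these 208 rows.

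The plants were clonal hybrid poplars, *Populus tremula* x *Populus alba*, of the clone labelled INRA 717 hybrid. All were raised from in vitro culture and kept for 3 months in a greenhouse with 16 h of supplemental lighting, and fully expanded leaves were taken at the middle of the stem. The 4 genotypes were wild-type, empty-vector (the vector control of the transformation), knockout and intermediate phenotype, called intermediate here, with 3 libraries each. The study used CRISPR on a glycosyltransferase. The labels do not name the edited gene, give its alleles or say what made a plant intermediate. Nor do they tell how many transformed lines stand behind the 3 libraries of a group, so every spread and p-value below measures differences between these libraries only. Library numbers are names in deposit order and pair nothing across groups. In leaf RNA, fewer cells of a type and less RNA per cell cannot be told apart.

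Poplar leaves store large amounts of salicinoids, which are phenolic glycosides that deter herbivores, and UDP-glycosyltransferases attach the sugar in their synthesis. Phenylpropanoids, flavonoids and condensed tannins draw on the same shikimate-derived phenolic precursors, and salicylic acid, a defence hormone, is chemically related to them. Disruption of a glycosyltransferase in such leaves poses the question of which other leaf transcripts are lower together with it, and the members are rows with a deep reduction within the level and overlap limits above. The files name rows only by *Populus trichocarpa* type IDs, and no annotation was used here, so no gene name or role is given for a member.

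Library totals lay between 5.38 and 17.3 M counts (M is 1000000), with a median at 6.18 M. A floor of 3 counts was worth between 0.173 and 0.558 CPM in a library. The median count of a member in a knockout library was 7.5, so differences between knockout libraries in the low members rest on few reads. Together the members held 1.34%, 1.43% and 1.63% of all counts in wild-type libraries 1 to 3 and 2.46%, 1.03% and 2.26% in empty-vector libraries 1 to 3. They held 0.530%, 1.93% and 0.866% in intermediate libraries 1 to 3. In knockout libraries 1 to 3 they held 0.0654%, 0.0625% and 0.170%. The knockout shares lie below the control shares by the selection itself. The shares spanned a 2.40-fold range among the controls and a 3.64-fold range among the intermediate libraries.

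Members covered a wide range of control levels. Their control means ran from 5.03 to 3432 CPM with a median of 20.7 CPM. Of the 208, 106 reached 20 CPM, 59 reached 50 CPM, 32 reached 100 CPM, 6 reached 500 CPM and 3 reached 1000 CPM. CPM orders rows by their share of reads, and since transcript lengths were not used, this order is not one of transcript number.

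The knockout mean of a member had a median of 8.04% of its control mean, with a middle range from 2.30% to 12.3% and a highest value of 16.6%. It was at most 10% in 126 members, at most 5% in 78, at most 2% in 50 and at most 1% in 19. On the log2 scale of the edgeR fit the median difference of knockout from controls was −3.48 over the members and −0.02 over all 14279 tested rows. All 208 members had their knockout libraries below all controls by rule, an arrangement that 13.6% of all tested rows showed, and nothing is read from that.

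**Figure D1:**
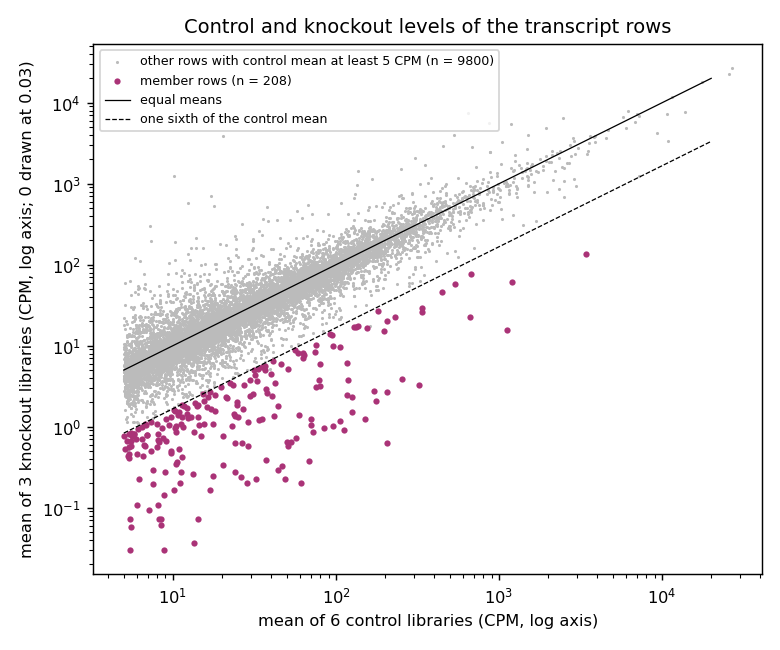
Mean CPM of the 3 knockout libraries against mean CPM of the 6 control libraries, both on log axes, for the 208 member rows (purple) and the other 9800 rows with a control mean of at least 5 CPM (grey). The solid line marks equal means and the dashed line marks 1/6 of the control mean; members fill the area under the dashed line from 5.03 to 3432 CPM, because that line chose them.

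The limits of the selection fell within a continuous range of values. Just inside the fold limit, Potri.001G145200.1 had a knockout mean of 16.6% of its control mean, Potri.019G016500.1 16.4% and Potri.010G114000.1 16.0%. Just outside it, Potri.017G097900.1 stood at 16.8%, Potri.002G110100.1 at 17.1% and Potri.001G107900.1 at 17.2%. Just inside the level limit, Potri.013G039700.1, Potri.017G011500.1 and Potri.001G290000.1 had control means of 5.03, 5.09 and 5.21 CPM. Just outside it, Potri.005G128000.1, Potri.005G246300.1 and Potri.017G154000.1 had 4.94, 4.93 and 4.93 CPM. A further 6 rows met the level and fold limits and were left out because knockout and control libraries overlapped. In 4 of these, Potri.001G051600.1, Potri.002G060800.1, Potri.002G173900.1 and Potri.016G075800.1, 4 of the 6 controls read no higher than the highest knockout library.

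The most abundant member was Potri.018G126000.1. It read 2314, 2896 and 2252 CPM in wild-type leaves, 5214, 2684 and 5232 CPM in empty-vector leaves, 708, 3823 and 2529 CPM in intermediate, and 22.5, 9.11 and 373 CPM in knockout. Its control mean was 3432 ± 1408 CPM (SD, n = 6) and its knockout mean 135 ± 206 CPM (SD, n = 3). Empty-vector libraries 1 and 3 stood highest among the controls, intermediate library 1 lay below all of them, and knockout library 3 held most of what was left in knockout. The spread within knockout exceeded the knockout mean, and the 25.4-fold ratio of the means was 217-fold without knockout library 3, which was left out for these ratios after the values were seen.

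Potri.006G103900.1, the second most abundant, had a different order of controls. It read 2251, 1751 and 444 CPM in wild-type leaves, 873, 1519 and 396 CPM in empty-vector leaves and 1142, 242 and 238 CPM in intermediate. Its knockout libraries held 137, 538 and 569 counts, with a mean of 61.8 ± 38.2 CPM (SD, n = 3). Wild-type libraries 1 and 2 and empty-vector library 2 were its 3 highest controls, intermediate library 1 was its highest intermediate library, and in CPM knockout library 2, not 3, was its highest knockout library.

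Potri.019G024600.1 had the largest ratio of highest to lowest intermediate library among these 8 leading members. It read 1538, 1166 and 1071 CPM in wild-type leaves and 1718, 220 and 1010 CPM in empty-vector. Its intermediate libraries read 32.7, 2399 and 117 CPM, so 1 of them exceeded every control and the other 2 lay below every control. Knockout read 4.98, 6.32 and 36.1 CPM, and the ratio of control to knockout mean was 71.0-fold with library 3 and 198-fold without it.

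The next 3 members by control mean repeated the pattern of a single high knockout library. Potri.003G129100.1 had a control mean of 676 ± 196 CPM (SD, n = 6) and read 34.0, 30.9 and 164 CPM in knockout. Potri.016G141500.1 had a control mean of 666 ± 292 CPM (SD, n = 6) and read 6.87, 3.90 and 57.4 CPM in knockout. Potri.015G089700.1 had a control mean of 538 ± 152 CPM (SD, n = 6) and read 35.0, 36.4 and 101 CPM in knockout. In all 3, knockout library 3 was the highest of its group and still below the lowest control. Without that library the ratio of control to knockout mean went from 8.85 to 20.8-fold, from 29.3 to 124-fold and from 9.35 to 15.0-fold.

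Potri.011G076500.1 differed from these in its even controls. It read 427, 510 and 444 CPM in wild-type leaves, 478, 418 and 422 CPM in empty-vector leaves, 450, 316 and 432 CPM in intermediate, and 57.7, 24.3 and 57.0 CPM in knockout. Its intermediate mean of 399 ± 73.1 CPM (SD, n = 3) was 88.8% of its control mean of 450 ± 36.7 CPM (SD, n = 6). The edgeR fit, which scales libraries otherwise than CPM, gave a log2 difference of −0.05 ± 0.24 (SE) and an adjusted p of 0.999. Intermediate libraries 1 and 3 lay within the control range and library 2 lay below it, while knockout stood at 10.3% of controls. Potri.005G242800.1 completed the 8 members with the highest control means, at 337 ± 87.6 CPM in controls (SD, n = 6) and 26.1 ± 15.2 CPM in knockout (SD, n = 3).

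**Figure D2:**
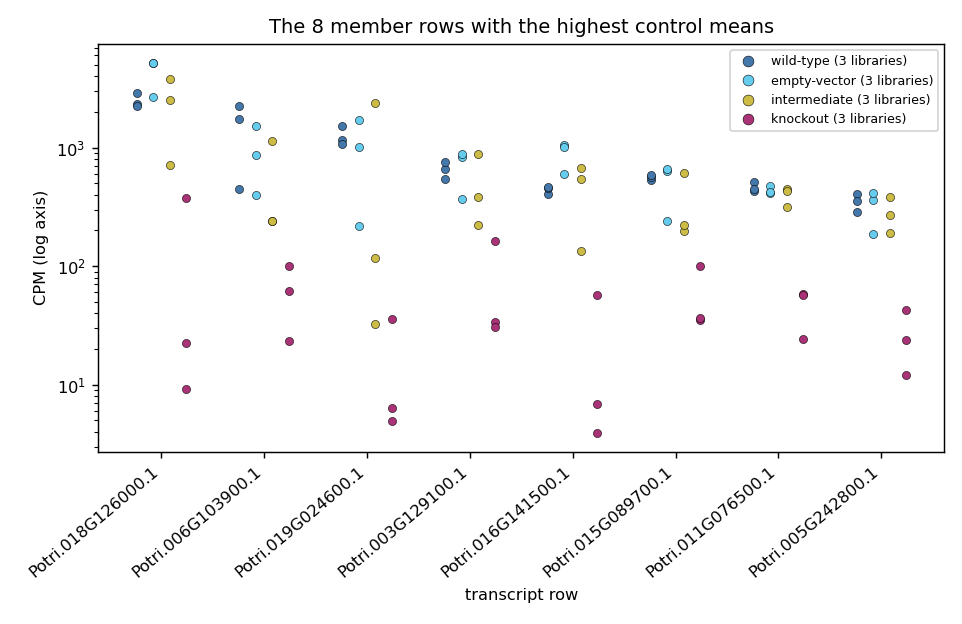
CPM on a log axis of the 8 members with the highest control means, 1 point per library, coloured by group with 3 libraries each. Knockout points lie below all control points by the selection; for Potri.018G126000.1 the 3 knockout points spread from 9.11 to 373 CPM, and for Potri.019G024600.1 the 3 intermediate points spread from 32.7 to 2399 CPM.

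At the other end stood members with almost no reads in knockout. No knockout library held a count of Potri.013G048200.1, which read 3.85, 4.98, 12.5, 14.8, 1.79 and 14.9 CPM over the controls (wild-type 1 to 3, then empty-vector 1 to 3). Taking 3 counts over the knockout group as the limit that a count of 0 allows, 0.147 CPM, its level was at least 59.9-fold lower in knockout. Potri.005G074500.1 also had 0 counts in knockout and a control mean of 5.44 ± 4.15 CPM (SD, n = 6), which made it at least 37.0-fold lower. These limits cover counting error only. Intermediate libraries held both rows, at 0.852, 8.20 and 3.11 CPM for the first and 0.852, 2.68 and 2.04 CPM for the second.

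Larger ratios could be measured in members with higher control levels. Potri.010G208100.1 read 149, 160 and 288 CPM in wild-type leaves, 341, 36.3 and 261 CPM in empty-vector leaves, and 0.687, 0.743 and 0.435 CPM in knockout, which was 4 counts in each knockout library. Its control mean of 206 ± 111 CPM (SD, n = 6) was 331-fold above its knockout mean of 0.622 ± 0.164 CPM (SD, n = 3). In intermediate it read 4.60, 346 and 35.6 CPM, so library 2 exceeded every control and libraries 1 and 3 lay below every control. Potri.005G092200.1 had 68.2 ± 44.8 CPM in controls (SD, n = 6) and 0.373 ± 0.336 CPM in knockout (SD, n = 3), from 1, 1 and 7 counts. Potri.005G212000.1 had 60.8 ± 40.1 CPM in controls (SD, n = 6) and 1, 0 and 4 counts in knockout. Potri.010G085200.1 had 48.9 ± 35.3 CPM in controls (SD, n = 6) and 2, 0 and 3 counts. Potri.008G108400.1, at 13.5 ± 9.08 CPM in controls, and Potri.002G050200.1, at 14.2 ± 10.5 CPM (both SD, n = 6), held 1 and 2 counts in the whole knockout group, too few for a ratio to be given.

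The members varied widely among the 6 control libraries, and this variation was shared. Their coefficient of variation over the controls had a median of 53.8%, against 21.5% over the other 9800 rows that reached 5 CPM. Relative to each row's control mean, the median member stood at 60.0%, 66.2% and 114% in wild-type libraries 1 to 3 and at 156%, 46.9% and 145% in empty-vector libraries 1 to 3. All rows that reached 5 CPM had library medians between 86.9% and 112% over the 12 libraries. Wild-type library 3 and empty-vector libraries 1 and 3 were the 3 highest controls in 148 members (71.2%), against 33.5% of the other rows. The reverse order, with wild-type libraries 1 and 2 and empty-vector library 2 highest, was found in 7 members (3.37%), among them Potri.006G103900.1, against 14.2% of the other rows. Empty-vector library 1 was the highest control in 115 members (55.3% against 23.8%), and empty-vector library 2 the lowest in 136 (65.4% against 19.1%). These shares are given without a test, since rows of the same libraries are not independent.

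Levels in the knockout libraries were shared out unevenly too. The median member stood at 5.19%, 4.49% and 9.40% of its control mean in knockout libraries 1 to 3. Knockout library 3 was the highest of its group in 124 members (59.6%), against 36.1% of the other rows. In 41 members (19.7%) it exceeded both other knockout libraries more than 3 times, against 0.592% of the other rows. The other rows were not chosen for low knockout levels, so the shares are not alike in read number. Few reads can meet this ratio, as in Potri.002G050200.1 with 0, 0 and 2 counts in knockout libraries 1 to 3. These 41 included 15 of the 59 members with a control mean of at least 50 CPM and 26 of the 149 below that level. For the median member the knockout level was 5.36% of controls from knockout libraries 1 and 2 alone. The median log2 difference of knockout from controls was −4.15 without knockout library 3.

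**Figure D3:**
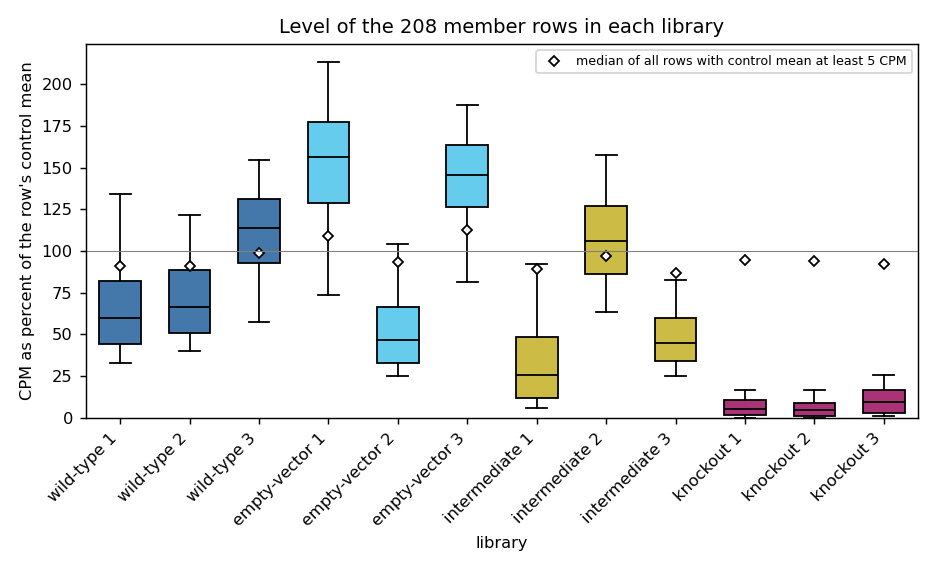
Level of the 208 members in each of the 12 libraries, as percent of the row's control mean; boxes span the 25th to the 75th percentile of the members with the median as a line, and whiskers run from the 5th to the 95th percentile. Diamonds give the median of all rows with a control mean of at least 5 CPM, which stay between 86.9% and 112%; member medians run from 46.9% to 156% in controls, from 25.9% to 106% in intermediate and from 4.49% to 9.40% in knockout.

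Markers of vascular tissue were checked beside this variation. Of 5 recalled IDs of xylem secondary wall cellulose synthases, 3 were measured, none was a member and none was at 0 in any library. Their summed level was 572, 478 and 954 CPM in wild-type leaves and 1420, 652 and 1082 CPM in empty-vector leaves. Potri.011G069600.1 read only 0.367 to 3.07 CPM over the controls, so the sums rest on the other IDs. The 3 controls in which most members were high were also the 3 with the highest marker sums. They were the 3 highest controls in 33.5% of the other rows that reached 5 CPM as well. In intermediate the sums were 863, 713 and 619 CPM, with intermediate library 1 the highest in the markers and the lowest in most members. In knockout they were 1407, 1522 and 353 CPM, with knockout library 3 the lowest in the markers and the highest in most members. The part of vascular tissue in the members' levels was not tested. Knockout library 3 was also the deepest of its group, at 9204894 counts against 5825764 and 5380384, and empty-vector library 2 the deepest of all.

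Not every member followed the shared variation. The coefficient of variation over the controls was under 20% in 11 members and under 30% in 32. The examples here fall outside the naming rule, apart from Potri.011G076500.1 above, and were chosen after their values were seen. Potri.002G117600.1 read between 12.6 and 15.5 CPM in the 6 controls, 8.35, 19.4 and 8.65 CPM in intermediate, and 1.54, 1.12 and 2.93 CPM in knockout. Potri.014G155300.1 read 26.7 ± 3.68 CPM in controls (SD, n = 6), 22.6 ± 4.64 CPM in intermediate (SD, n = 3), and 0.172, 0 and 1.74 CPM in knockout. The first thus varied more within intermediate than over the controls, and the second varied little in both.

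The comparison of intermediate plants with controls asked whether members were also lower in the plants labelled as intermediate. The intermediate libraries took no part in the selection, while the controls did. By edgeR's quasi-likelihood test no member passed an adjusted p of 0.05, and neither did any of the tested rows in the lower direction (0% called). At an unadjusted p under 0.05, edgeR had 15 members lower (7.21%), against 1.84% of all tested rows. Only the lower direction was counted at that unadjusted level. DESeq2, run as an alternative, called 4 members lower (Potri.019G016500.1, Potri.019G016900.1, Potri.019G045400.1 and Potri.T072300.1), where it called 0.056% of all tested rows lower.

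As a group the members leaned downward in intermediate, which is given as a description without a test. The rule asked for high values in the same controls, which by itself can place other libraries lower relative to them. The median log2 difference of intermediate from controls was −0.55 over the members and −0.00 over all tested rows. It was below 0 in 195 members and above 0 in 13, against 50.2% of all tested rows below 0. In plain CPM, the intermediate mean was below the control mean in 201 members (96.6%), against 73.5% of the other rows that reached 5 CPM. It had a median of 61.8% of the control mean and ran from 30.4% to 169%. It was within the range of the 6 controls in 179 members (86.1%), below the lowest control in 28 (13.5%) and above the highest in 1 (0.481%). Among the other 9800 rows these shares were 85.8%, 10.1% and 4.18%, so the first 2 were close to those of the members.

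**Figure D4:**
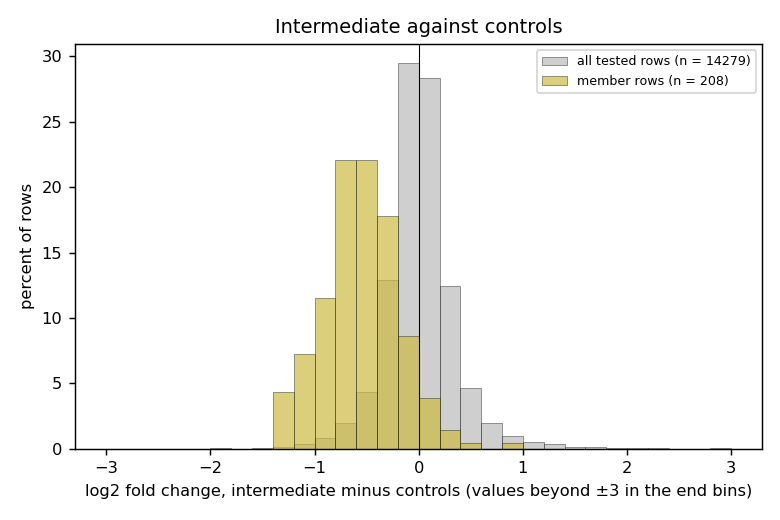
Distribution of the log2 fold change of intermediate against controls from the edgeR fit, as percent of rows, for the 208 members (yellow) and all 14279 tested rows (grey). The members' median is −0.55 and that of all tested rows −0.00; no member passed an adjusted p of 0.05 by edgeR.

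The 3 intermediate libraries differed strongly from each other in the members. The median member stood at 25.9%, 106% and 44.8% of its control mean in intermediate libraries 1 to 3. Library 2 was the highest of its group in 193 members, library 1 was the lowest in 165, and the order 1, 3, 2 from low to high held in 164 (78.8%), against 2939 of the other 9800 rows. Library 1 lay below all 6 controls in 158 members (76.0% against 23.7%), library 3 in 72 (34.6% against 22.1%) and library 2 in 9 (4.33% against 11.2%). Without intermediate library 2 the median log2 difference was −1.13. In that fit 112 members (53.8%) were lower at an unadjusted p under 0.05 in edgeR's test, against 3.62% of all rows tested. Still none passed after adjustment. The unadjusted count was made for this fit only, and the library left out is the one in which most members were highest. The members vary together and were chosen with the same controls, so nothing is read from the count. Without intermediate library 1 the median was −0.24, and without intermediate library 3 it was −0.42.

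All 3 intermediate libraries lay below all 6 controls in 7 members (3.37%), a share close to the 2.28% of all tested rows that did so. The 4 that DESeq2 called are among them, with Potri.004G115400.1, Potri.015G143900.1 and Potri.T001000.1. The last 3, Potri.019G016900.1 and Potri.T072300.1 fall outside the naming rule and were chosen after their values were seen. Potri.019G045400.1 read 4.22, 4.29 and 5.17 CPM in wild-type leaves, 7.37, 4.68 and 6.53 CPM in empty-vector leaves, 2.04, 1.67 and 2.14 CPM in intermediate, and 0.858, 0.372 and 0.435 CPM in knockout. Its log2 difference of intermediate from controls was −1.30 ± 0.24 (SE). Its adjusted p was 0.22 by edgeR and 0.020 by DESeq2, and ran from 0.020 to 0.93 over the alternatives, edgeR fits included. Knockout and control libraries were apart by rule, and the intermediate libraries lay between them without overlap. The intermediate mean was 36.3% of the control mean.

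Potri.019G016900.1, at a higher level, also had all its intermediate libraries between the knockout and control libraries, which the rule had set apart. It read 24.6, 16.1 and 16.0 CPM in wild-type leaves, 24.7, 19.5 and 26.1 CPM in empty-vector leaves, 11.4, 10.0 and 7.19 CPM in intermediate, and 2.06, 1.67 and 3.15 CPM in knockout. The log2 difference of intermediate from controls was −1.04 ± 0.23 (SE). Its adjusted p was 0.24 by edgeR and 0.013 by DESeq2, with a range from 0.013 to 0.95 over the alternatives. Its neighbour Potri.019G016500.1, 4 locus steps away, read 4.43, 6.02 and 4.47 CPM in intermediate against 6.89 to 15.1 CPM in controls, with an adjusted p of 0.24 by edgeR and 0.029 by DESeq2 (0.029 to 0.95 over the alternatives). Potri.T072300.1, on a scaffold ID, read 18.4, 13.2 and 12.1 CPM in intermediate against 20.7 to 41.0 CPM in controls, with an adjusted p of 0.33 by edgeR and 0.041 by DESeq2 (0.041 to 1.00 over the alternatives).

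Other members with a low intermediate mean had uneven controls. Potri.001G319200.1 had the lowest, 30.4% of its control mean, and read 20.4, 27.8 and 35.7 CPM in wild-type leaves, 135, 28.9 and 128 CPM in empty-vector leaves, and 9.20, 27.8 and 20.1 CPM in intermediate. Its control mean was carried by empty-vector libraries 1 and 3, and its intermediate libraries overlapped wild-type (log2 difference −1.33 ± 0.53 SE, edgeR adjusted p = 0.69). Potri.014G183000.1 had an intermediate mean of 34.2% of its control mean (edgeR adjusted p = 0.76) and Potri.018G131200.1 one of 37.2% (edgeR adjusted p = 0.83). Potri.T072900.1, at 37.0% (edgeR adjusted p = 0.76), read 0.852, 3.68 and 1.46 CPM in intermediate and overlapped the controls.

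A few members read higher in intermediate than in controls. Potri.013G120800.1 read 13.4, 11.3 and 3.29 CPM in wild-type leaves, 8.90, 7.69 and 8.46 CPM in empty-vector leaves, 22.3, 13.5 and 8.94 CPM in intermediate, and 0, 0 and 0.435 CPM in knockout. Its intermediate mean was 169% of its control mean, with a log2 difference of 0.86 ± 0.41 (SE) and an edgeR adjusted p of 0.80. Intermediate libraries 1 and 2 lay above all controls and library 3 within their range. Potri.001G145200.1 stood at 134% of its control mean, with an edgeR adjusted p of 0.92. For Potri.002G252200.1, at 113%, intermediate library 2 read 236 CPM and the other 2 read 3.92 and 30.9 CPM, so the mean was set by 1 library. Potri.005G086300.1, at 112%, likewise read 22.2 CPM in intermediate library 2 and 4.43 and 7.77 CPM in the others.

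Set beside knockout, intermediate plants had higher levels of most members. All 3 intermediate libraries lay above all 3 knockout libraries in 183 members, where 13.2% of all tested rows did so. Since the knockout libraries chose the members, this is a description without a test. The size of the ratio rested on single libraries, which were left out after the values were seen. The intermediate mean was 17.4 times the knockout mean in Potri.018G126000.1, with 149 times without knockout library 3 and 12.0 times without intermediate library 2. It was 53.8 times in Potri.019G024600.1, with 150.4 times without knockout library 3 and 4.76 times without intermediate library 2. It was 207 times in Potri.010G208100.1, with 180 times without knockout library 3 and 32.3 times without intermediate library 2.

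Empty-vector and wild-type leaves were compared to see whether members differed between the controls themselves. No member passed edgeR's test in either direction, where 0.035% of all tested rows were called higher and 0.007% lower in empty-vector. At an unadjusted p under 0.05, edgeR had 19 members higher (9.13%) and 1 lower (0.481%), against 8.82% and 8.05% of all tested rows. DESeq2 called 2 members higher, against 0.854% of all tested rows, and 1 lower, against 0.847%. The median log2 difference of empty-vector from wild-type was 0.39 over the members, with 165 above 0, and 0.05 over all tested rows. All empty-vector libraries lay above all wild-type libraries in 10 members (4.81%), against 13.6% of all tested rows. They lay below them in 4 members (1.92%), against 5.17%.

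The absence of edgeR calls depended on 1 library, and calls over all tested rows depended on it too. Without empty-vector library 2, the control in which most members were lowest, edgeR called 11 members higher (5.29%) and 4 lower (1.92%). Over all rows tested in that fit it called 2.56% higher and 6.33% lower, up from 0.035% and 0.007% with all libraries. The largest ratio of empty-vector to wild-type mean was 4.49 in Potri.010G151000.1. It read 21.5, 20.8 and 38.7 CPM in wild-type leaves and 206, 23.9 and 134 CPM in empty-vector leaves, with an adjusted p of 0.18 by edgeR and 0.027 by DESeq2 (0.011 to 0.63 over the alternatives). Potri.012G018000.1 read 3.30, 3.60 and 7.05 CPM in wild-type leaves and 25.2, 8.15 and 26.6 CPM in empty-vector leaves, so the groups did not overlap (adjusted p 0.17 by edgeR, 0.019 by DESeq2 and 0.015 to 0.63 over the alternatives). In both, empty-vector library 2 stood closest to wild-type and libraries 1 and 3 well above it.

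The opposite direction was rarer. Potri.005G028100.1 read 30.3, 25.4 and 33.1 CPM in wild-type leaves and 15.9, 12.0 and 12.9 CPM in empty-vector leaves, a wild-type mean 2.18 times the empty-vector mean, with an adjusted p of 0.16 by edgeR and 0.0043 by DESeq2 (0.0043 to 0.61 over the alternatives). Its groups did not overlap, and its intermediate libraries, at 18.9, 30.1 and 11.9 CPM, spanned both. Potri.004G121000.1 read 11.0, 9.78 and 2.35 CPM in wild-type leaves and 1.74, 8.03 and 1.81 CPM in empty-vector. Potri.012G091700.1 read 13.0, 21.3 and 6.58 CPM in wild-type leaves and 2.15, 17.3 and 2.54 CPM in empty-vector. In the last 2 the low controls were wild-type library 3 and empty-vector libraries 1 and 3, the libraries in which most other members were high.

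Members lay on all 19 chromosomes named in the IDs, and 11 were on scaffold IDs. They made up between 0.879% of the rows that reached 5 CPM (5 members on chromosome 3) and 6.17% (15 of 243 rows on chromosome 19). Chromosome 7 followed among the chromosomes with 3.25%, and chromosome 1 held the most members, 21. Locus numbers are those of the *Populus trichocarpa* type IDs, and no coordinates were used here.

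Some members were neighbours in locus order, which was read only from chromosome IDs, leaving out the 11 members on scaffold IDs. Taking members at most 5 locus steps apart, 31 members (14.9%) fell into 12 groups, of which 9 were pairs. How many neighbours an equal number of other expressed rows would hold was not counted, so nothing is read from this number. The groups below are described only. The largest held 6 of the 7 listed rows from Potri.017G046700.1 to Potri.017G047500.1 on chromosome 17. Their control means ran from 7.16 to 176 CPM and their knockout means from 1.16% to 3.26% of these. Potri.017G047400.1 read 62.7, 87.5 and 255 CPM in wild-type leaves, 297, 52.5 and 303 CPM in empty-vector leaves, 17.9, 220 and 74.0 CPM in intermediate, and 2.06, 0.929 and 3.15 CPM in knockout. Potri.017G046700.1, Potri.017G046800.1, Potri.017G047100.1, Potri.017G047200.1 and Potri.017G047500.1 shared with it the lowest and the 3 highest controls. Empty-vector library 2 was lowest, and wild-type library 3 and empty-vector libraries 1 and 3 were highest. Potri.017G047500.1 varied less, from 70.4 to 142 CPM over the controls, and read 0.172, 0.186 and 7.06 CPM in knockout. The remaining row of the stretch, Potri.017G047000.1, had 0.404 CPM in controls and 0 counts in knockout, and so missed the level limit.

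On chromosome 7, 4 of 5 listed rows from Potri.007G113700.1 to Potri.007G114400.1 were members. Their control means ran from 70.1 to 323 CPM and their knockout means from 0.822% to 1.80% of these. Potri.007G113900.1 read 119, 153 and 439 CPM in wild-type leaves, 587, 97.6 and 542 CPM in empty-vector leaves, 42.9, 381 and 138 CPM in intermediate, and 3.09, 2.42 and 4.24 CPM in knockout. The row left out, Potri.007G114100.1, had 2.78 CPM in controls and 0 counts in knockout. In these 4 members the knockout libraries lay closer together than in Potri.018G126000.1.

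On chromosome 5, Potri.005G211800.1, Potri.005G211900.1 and Potri.005G212000.1 were all members and were the only rows listed in their stretch. Their control means ran from 43.9 to 60.8 CPM and their knockout means from 0.332% to 2.36% of these. A pair on chromosome 19 joined Potri.019G024600.1 to Potri.019G024700.1, which read 140, 163 and 232 CPM in wild-type leaves, 267, 79.3 and 355 CPM in empty-vector leaves, 44.3, 295 and 74.8 CPM in intermediate, and 9.96, 12.1 and 38.9 CPM in knockout. Both rows of the pair had intermediate library 2 far above the other 2 and knockout library 3 highest. Neighbouring loci can be near-identical copies that share reads, which was not checked here, so rows of 1 group are not independent and the split of reads among them is uncertain.

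**Figure D5:**
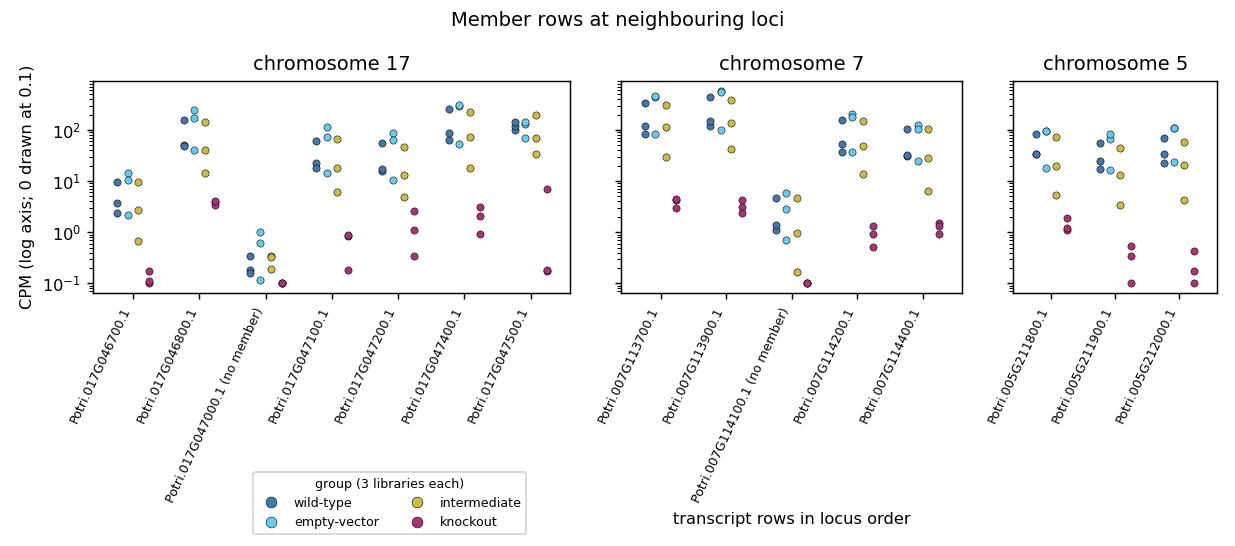
CPM on a log axis of the rows in the 3 largest groups of neighbouring members, on chromosomes 17, 7 and 5, in locus order, 1 point per library and 3 libraries per group, with 0 drawn at 0.1. The 2 rows marked as no member have low levels throughout and 0 counts in knockout; the members lie between 0 and 7.06 CPM in knockout.

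Transcript rows of 1 locus could behave differently. Only 2 members shared a locus with another row. Potri.016G141500.1 stood at 3.41% of its control mean in knockout by selection, while the second row of its locus, Potri.016G141500.2, had 1.61 CPM in controls and 1.48 CPM in knockout. Potri.003G191300.2 read 1.83, 2.06 and 7.99 CPM in wild-type leaves, 9.62, 1.39 and 8.70 CPM in empty-vector leaves, and 0.343, 0.186 and 0.760 CPM in knockout. Its partner Potri.003G191300.1 had 10.2 ± 3.48 CPM in controls (SD, n = 6) and 8.91 CPM in knockout, or 87.1% of controls. How reads were assigned to rows of 1 locus is not given in the sources used here.

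None of the recalled pathway lists contributed a member. The salicinoid, phenylpropanoid and flavonoid lists held only 3, 10 and 5 rows that reached 5 CPM. Members were 2.08% of all rows at that level, so nothing is read from their absence among so few. The lists hold published IDs recalled for each pathway and were not checked against an annotation. In the comparison of knockout with controls, edgeR called 17.1% of all tested rows higher and 13% lower. All 3 IDs of the salicinoid synthesis list were measured, of which 1 was called higher and 1 lower, and their knockout means ran from 22.1% to 799% of controls. The lowest of them, Potri.016G014500.1, read 35.4 to 76.6 CPM over the controls and 9.61, 11.2 and 9.99 CPM in knockout, so it missed the fold limit. Of 19 phenylpropanoid and monolignol IDs, 11 were measured and none was called, with knockout means from 45.7% to 136% of controls. Of 13 flavonoid and condensed tannin IDs, 6 were measured and 4 tested, of which 2 were called lower. Potri.002G173900.1 of that list met the level and fold limits and was left out for overlap, since empty-vector libraries 1 and 3 read 40.9 and 9.43 CPM and the other 4 controls at most 0.783 CPM. None of the 3 measured cellulose synthase IDs was called.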

How the data were processed

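RNA-seq of 12 poplar leaf libraries was used, with groups from the genotype label. RNA came from a phenol and chloroform extraction and mRNA from bead enrichment, per the labels' protocols. The authors deposited whole-number counts per transcript row, 1 table per library, used here as deposited. DESeq2, HTSeq, HISAT2, SAMtools and Cufflinks appear in the submitters' processing notes. Their versions, the genome build and the strand setting are not given in the sources used.

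CPM is the count over the library total. Percentages and ratios of means use plain CPM and need not match the log2 differences of the edgeR fit. That fit uses TMM scaling and averages the control groups on the log2 scale. Tests were fitted across all rows in R 4.3.3 with edgeR 4.0.16. filterByExpr (minimum count 10, minimum total 15, proportion 0.7) kept 14279 rows, including all 208 members. TMM scaling, 4 group means, 8 residual degrees of freedom and 2-sided quasi-likelihood tests were used, with Benjamini-Hochberg adjustment over all tested rows and a threshold of 0.05. Both control group means were weighted equally, and an SE is the log2 fold change over the root of F. The fit gave a common biological coefficient of variation of 24.6%. The scripts were checked on simulated counts. DESeq2 1.42.0, other scalings, no filter, either control alone and each library left out were the alternatives. For the number of members, changed level and fold limits were alternatives too.

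Members and lists were chosen with earlier results of these data known. Members named were the extremes in control level, in knockout, intermediate and empty-vector ratios, those at the limits, neighbours and rows sharing a locus. Exceptions are stated.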

Additional observations from a re-analysis of the deposited data

Results flagged for a closer look

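Among the 52 named members, 3 had a control library far from the other 5, by Dixon's criterion at the 95% level. Chance meets this criterion in about 1 of 20 independent groups. The named members were partly picked by these control values and vary together, so nothing is read from the number. Potri.015G089700.1 read 242.7 CPM in empty-vector library 2, its lowest control, while the other 5 read 531 to 659 CPM. Potri.014G183000.1 read 21.1 CPM in empty-vector library 1, its highest control, while the other 5 read 2.48 to 8.34 CPM. Potri.001G189900.1 read 14.6 CPM in wild-type library 3, its highest control, while the other 5 read 2.90 to 4.74 CPM. For Potri.001G189900.1, that library carried the control mean of 5.36 ± 4.56 CPM (SD, n = 6) over the level limit.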

How the results depend on the processing

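The number of members ran from 152 to 297 over 16 alternatives, but both ends came from changed selection limits. A level limit of 10 CPM gave 152 and a looser fold limit gave 297. TMM-scaled CPM under the same limits gave 198, and leaving out 1 library gave between 189 and 257. The members' median log2 difference of knockout from controls was −4.15 to −3.38 with 1 library left out, lowest without knockout library 3. For intermediate against controls, edgeR called 0 members in every alternative run and DESeq2 called 4, and the median ran from −1.13 without intermediate library 2 to −0.24 without library 1. For empty-vector against wild-type, DESeq2 called 3 members and edgeR between 0 and 15 with 1 library left out. The 15 came without empty-vector library 2, where calls rose over all tested rows as well. The median ran from 0.08 to 0.71. Among 225 alternatives for 15 named members, 214 kept direction and side of the threshold. The call of Potri.019G045400.1 was gained with DESeq2 (log2 −1.29). Against wild-type alone, Potri.002G252200.1 was at −0.19 and Potri.001G189900.1 at −0.30 in place of a positive value. With 1 library left out the log2 difference of intermediate changed sign in 5 members, ranging from −1.92 to 0.86 in Potri.002G252200.1, −0.55 to 0.62 in Potri.005G086300.1, −0.066 to 0.38 in Potri.002G119700.2, −0.86 to 0.041 in Potri.018G126000.1 and −3.70 to 0.23 in Potri.019G024600.1. The cause was not tested. No paired analysis was possible because the labels give each plant its own name and no replicate number is shared between groups. Depth limits the members with few knockout reads, where 1 library's counts decide the ratio.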
